A study of Homo sapiens with 33 samples.

Results

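The S2 fraction of sorted HepG2 cells was set against the S1 fraction, the fraction before it among 4 numbered S-phase fractions. HepG2 is an established human liver cancer cell line. The comparison used 4 RNA libraries of the 33 samples in the series: S2 replicates 2 and 3, and S1 replicates 2 and 3. The other RNA samples are 8 libraries of the G1, S3, S4 and G2 fractions and 3 libraries of unsorted cells, and 18 Repli-seq samples of replicating DNA were not analysed here. Both fractions are of the same line, and the labels name no drug, genetic change or time for either. They do not give the sort limits that divide S1 from S2, so the fractions are known by their names alone. The labels call the molecule nuclear RNA and name a stranded total RNA kit for very small inputs. Nothing says that the replicates came from separate cultures, so a p-value here speaks to variation among libraries, part or all of which could be technical.

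Levels are given as rescaled TPM. TPM counts transcripts per 1000000, here rescaled so that the protein-coding genes of each library sum to 1000000. Before rescaling, protein-coding genes held 18.9% and 14.8% of TPM in S2 replicates 2 and 3, against 16.8% and 14.1% in S1. Rescaled levels are therefore several times higher than TPM over all genes, by a factor that differs between libraries. Of 19320 protein-coding genes, 10616 had a mean of at least 5 rescaled TPM over the 4 libraries and were tested. HAGHL and NECAP2 lay just inside this limit with means of 5.001 each, and KCNJ10 and PLXNA2 lay just outside it with 4.99 each. A difference is S2 minus S1 on the log2(rescaled TPM + 1) scale, taken between libraries with the same replicate number. A gene is called higher in both replicates when both differences are above 0. Adding 1 before taking logs understates the difference of genes with low levels.

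During S phase the cell copies its genome from origins that the MCM helicase licensed in G1, and it makes new histones to package the copies. Many genes for copying DNA belong to a wave of transcription at the G1 to S transition that E2F factors control. Genes for mitosis belong to a later wave: the DREAM complex holds them low in G1 through a promoter element called the cell cycle genes homology region (CHR), and B-MYB and FOXM1 activate them afterwards.

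The files yielded 8526961 and 7400217 whole reads on genes in the S2 libraries (replicates 2 and 3), against 7794948 and 9309607 in the S1 libraries. The median gene tested had 243 and 268.5 reads in S2, against 221 and 313 in S1. Many hepatocyte genes were abundant, with ALB, which encodes albumin, at 25888 and 14573 rescaled TPM in S2, against 26853 and 19381 in S1. Of 33 genes for secreted plasma proteins, 30 had a mean of at least 5. APOB did not, with 0.79 and 0.46 rescaled TPM in S2, against 1.64 and 0.80 in S1, and neither did CFB and ITIH4. The summed level of 10 fibroblast markers was 27.2 and 14.1 rescaled TPM in S2, against 16.6 and 10.9 in S1. That of 10 endothelial markers was 22.9 and 17.9 in S2, against 12.9 and 22.4 in S1. The leukocyte gene PTPRC (CD45) was listed at 0 and 0.11 rescaled TPM in S2 and at 0 in both S1 libraries, and MS4A1 (CD20) at 0 in all 4. The 12 leukocyte markers summed to 2366 and 1435 rescaled TPM in S2, against 2169 and 1400 in S1, nearly all of it LYZ, which encodes lysozyme. The part of other cell types in the differences below was not tested.

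The replicate numbers stood apart in both fractions, which limits every result below. The 13 mitochondrially encoded mRNAs took 29.7% and 12.2% of the rescaled total in S2 replicates 2 and 3, against 30.1% and 20.5% in S1. Their share was lower in replicate 3 than in replicate 2 in both fractions, and the S2 library of replicate 3 had the lowest of the 4. All shares sum to a fixed total, so a larger share for these genes leaves less for the others. The median difference over all genes was -0.06 in replicate 2 and 0.15 in replicate 3. Counts over all genes and of some lists are therefore also given after subtracting each replicate's median difference over all genes. This is called centring here, and the other list counts are not centred. In a mixed sample, more cells of a kind and more RNA per cell cannot be told apart.

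No gene was called in the fit used here, which treats libraries of a fraction as unpaired. With limma on the 12 sorted libraries and no replicate block, 0 of 10616 genes (0.0%) had an adjusted p under 0.05 in either direction, and the smallest adjusted p was 0.9999. At an unadjusted p under 0.05 there were 104 genes, of which 83 were higher in S2. With median-ratio scaling 0 genes were called, and 187 of 346 at an unadjusted p under 0.05 were higher. The limma test on the recovered reads (voom) also called 0, and 183 of 322 were higher. Fits that pair libraries by replicate number are given under the processing alternatives, since the labels do not say what the numbers share. The SE and p-values printed for single genes come from the unpaired fit, so the spread between replicate numbers is part of them. The genes below are described by their values and by whether both replicates went the same way, and none of them is reported as changed.

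More genes were higher than lower in S2. Of the 10616 genes, 3309 (31.2%) were higher in both replicates, 2157 (20.3%) were lower in both and 5150 differed in sign or were level in a replicate. Centring places equal numbers on each side of 0 in each replicate by construction, and 3035 genes (28.6%) were then higher in both and as many lower in both. The differences had an SD over genes of 0.46 in replicate 2 and 0.40 in replicate 3, and over genes they correlated with r = 0.15, where the genes share libraries and are not independent replicates. At 1.5-fold or more in both replicates, 237 genes (2.23%) were higher, 52 (0.49%) were lower and 152 were past 1.5-fold in opposite directions. At 2-fold, 38 genes (0.358%) were higher, 8 (0.0754%) were lower and 26 went opposite ways. Centring gave 163 higher and 80 lower at 1.5-fold, and 31 higher and 9 lower at 2-fold, and rescaling without the mitochondrial genes gave 32 higher and 14 lower at 2-fold.

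**Figure D1:**
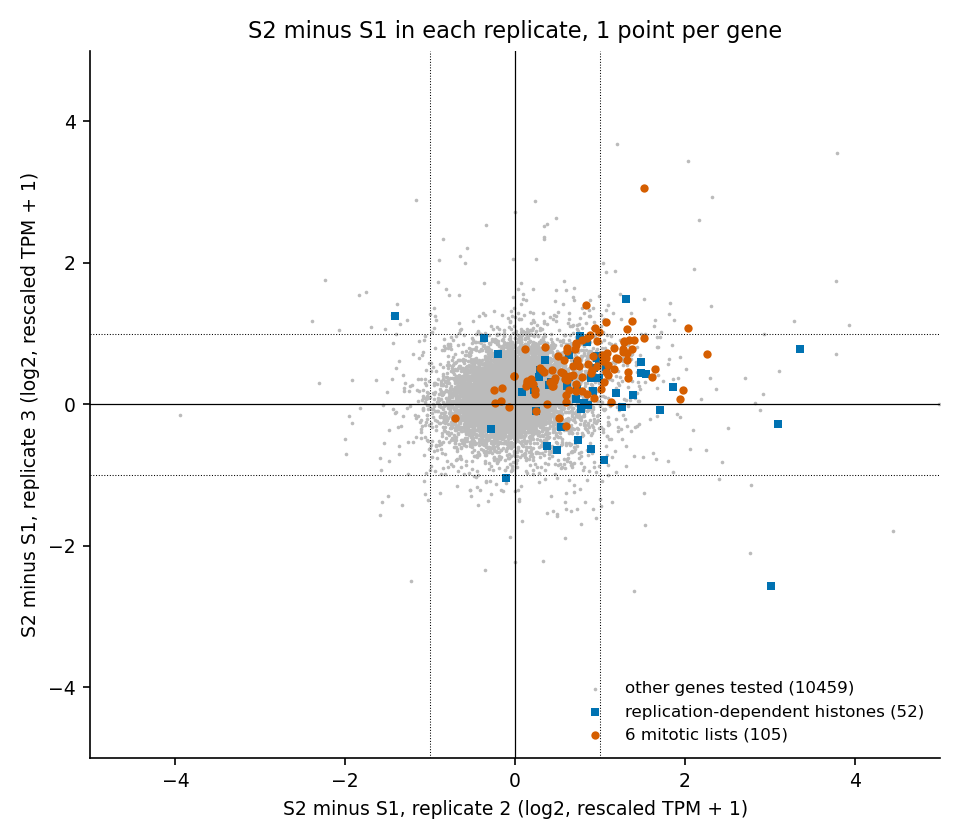
S2 minus S1 of every tested gene on the log2(rescaled TPM + 1) scale, with replicate 2 on the horizontal axis and replicate 3 on the vertical axis. Orange points are the 105 tested genes of 6 mitotic lists, blue squares the 52 tested replication-dependent histone genes and grey points the other genes; dotted lines mark a 2-fold difference. Most orange points lie above 0 on both axes, with 94 of 105 higher in S2 in both replicates, while the grey cloud has little tilt.

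Genes for mitosis were higher in S2 within each replicate in most cases. Of 105 tested members of 6 lists (mitotic cyclins and their partners, mitotic kinases, spindle motors, kinetochore proteins, anaphase regulators and chromosome structure proteins), 94 were higher in S2 in both replicates. For comparison, 31.2% of all tested genes were, and 20.3% were lower in both. TOP2B and CHEK1 were the 2 members lower in both, and 9 members went opposite ways; these exceptions are named for their values. The members' median difference was 0.75 in replicate 2 and 0.48 in replicate 3, against -0.06 and 0.15 over all genes. At 1.5-fold or more in both replicates there were 37 members, against 2.23% of all genes, and at 2-fold 5 members, against 0.358%. These shares of all genes serve for each of the 6 lists below as well. Centring left 88 members higher and 4 lower. These lists were chosen with the pattern of mitotic genes in these libraries known, so the counts describe it and are no independent support.

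Levels of the mitotic genes differed more between replicates than between fractions. Replicate 3 was above replicate 2 in both S2 and S1, with a median member level of 5.74 and 6.81 (log2) in S2 replicates 2 and 3, against 4.98 and 6.34 in S1. Both S2 libraries were therefore above both S1 libraries for just 18 of the 105 members, and below them for 1, against 9.72% and 5.22% of all genes. In limma's difference of means, the median member was 0.65 higher in S2 with all libraries, against 0.04 over all genes. The median member was -0.05 without S1 replicate 2 (46 of 105 higher), against -0.13 over all genes. Without S2 replicate 3 it was 0.07 (62 of 105 higher), against -0.22 over all genes. It was 1.38 without S1 replicate 3 and 1.18 without S2 replicate 2, against 0.21 and 0.34 over all genes. The all-gene medians of these fits serve for the lists below as well. The direction of the members' own difference thus rests on comparing libraries with the same replicate number. The pooled median stayed above that of all genes in each fit, by just 0.09 without S1 replicate 2. The lists taken singly were split in that fit, against -0.13 over all genes. Medians were lower than this for the kinase (-0.19), kinetochore (-0.14) and chromosome structure (-0.21) lists. They were higher for the cyclin (0.02), spindle (0.09) and anaphase (0.27) lists. The labels do not say what libraries with the same number share.

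Aurora B kinase and its partners INCENP and CDCA8 in the chromosomal passenger complex were among the members with the largest differences. AURKB, the kinase that corrects faulty attachments of chromosomes to the spindle, had 218 and 326 rescaled TPM in S2 (replicates 2 and 3), against 52.3 and 155 in S1. Both S2 libraries were above both S1 libraries, and limma gave a difference of 1.55 ± 0.67 (SE), with an unadjusted p of 0.0435 and an adjusted p of 0.9999. INCENP, the scaffold of the complex, had 118 and 133 rescaled TPM in S2, against 44.8 and 77.0 in S1. CDCA8 (borealin), another subunit, had 63.7 and 112 rescaled TPM in S2, against 21.6 and 58.2 in S1. The groups did not overlap for either gene.

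Of the other mitotic kinases, PLK1 drives mitotic entry and centrosome maturation. It had 113 and 172 rescaled TPM in S2, against 45.9 and 93.2 in S1, with no overlap and a limma difference of 1.08 ± 0.48 (unadjusted p = 0.0479, adjusted p = 0.9999). BUB1B, a spindle checkpoint kinase, had 101 and 204 rescaled TPM in S2, against 44.4 and 117 in S1, so that S2 replicate 2 lay below S1 replicate 3. PBK had 35.4 and 60.2 rescaled TPM in S2, against 12.8 and 31.6 in S1, with no overlap. In this list 13 of 14 members were higher in both replicates, with medians of 0.74 and 0.45. CHEK1, which restrains mitotic entry while DNA is being copied, was the other member, with differences of -0.08 and -0.04.

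**Figure D2:**
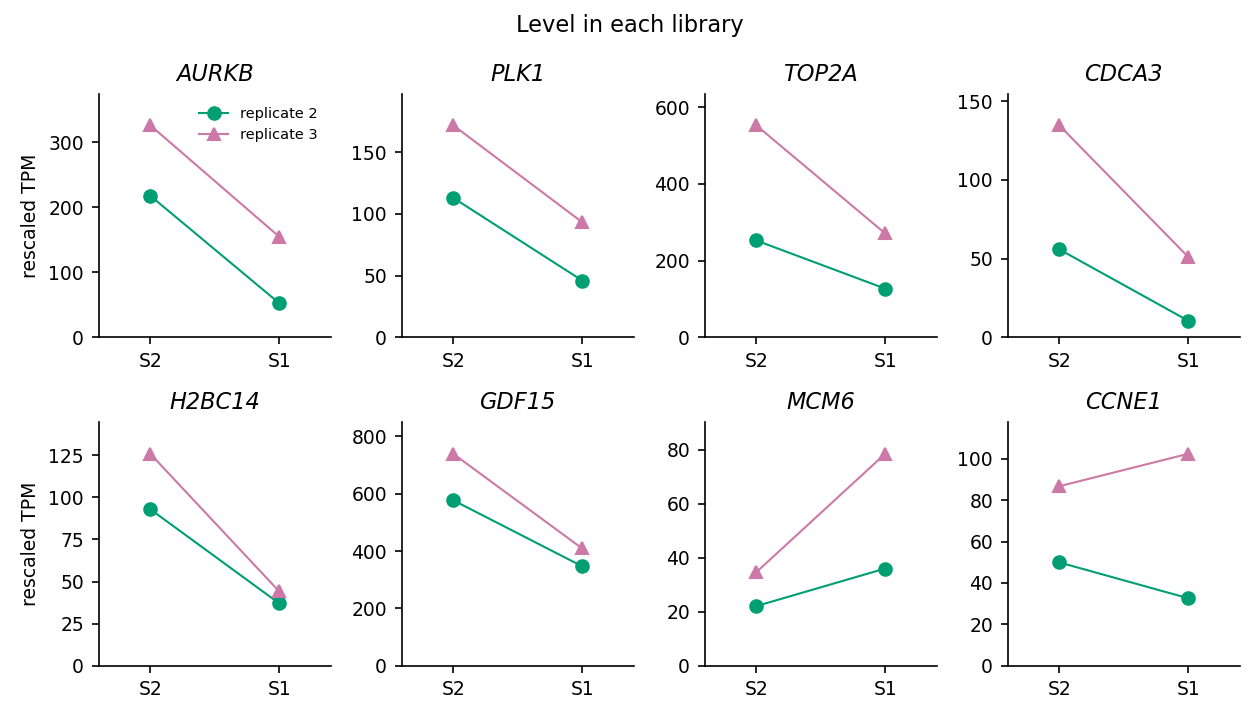
Rescaled TPM of 8 genes in each library, with S2 left of S1 and a line joining libraries of the same replicate number (circles replicate 2, triangles replicate 3). AURKB, PLK1, CDCA3, H2BC14 and GDF15 have both S2 libraries above both S1 libraries, MCM6 has both below, TOP2A overlaps between replicates and the lines of CCNE1 slope opposite ways.

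The cyclins that carry cells into mitosis and the CDK1 they bind were higher in S2 within each replicate but overlapped across replicates. CCNB1 (cyclin B1) had 94.2 and 218 rescaled TPM in S2, against 56.6 and 141 in S1. CCNA2 (cyclin A2), which acts in both S phase and mitotic entry, had 59.5 and 149 rescaled TPM in S2, against 28.6 and 97.1 in S1, and CDK1 had 60.2 and 168 in S2, against 27.8 and 125 in S1. For all 3 genes S2 replicate 2 was below S1 replicate 3. FOXM1, an activator of the mitotic wave, had differences of 1.27 and 0.74 in replicates 2 and 3. MYBL2, which encodes B-MYB, had 0.60 and -0.30, the one member of its list that went opposite ways. Of the 13 members, 12 were higher in both replicates and 7 were so by 1.5-fold or more.

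Spindle motors and spindle assembly factors had the largest list median in replicate 2, at 1.05, and 0.57 in replicate 3. Of 27 members, 26 were higher in both replicates, 12 by 1.5-fold and 3 by 2-fold. TPX2, which activates Aurora A on spindle microtubules, had 232 and 450 rescaled TPM in S2, against 120 and 212 in S1, without overlap. KIF18B, a motor that shortens astral microtubules, had 95.3 and 225 rescaled TPM in S2, against 37.7 and 108 in S1, where S2 replicate 2 was below S1 replicate 3. KIF2C, which depolymerises microtubules at centromeres, had differences of 1.34 and 0.91. KIFC1, a minus-end motor, had 4.10 and 37.6 rescaled TPM in S2, against 0.78 and 3.65 in S1. It rested on 18 and 118 reads in S2, against 3 and 15 in S1, and its level varied as much between the S2 libraries as between fractions.

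Most kinetochore and anaphase genes were also higher in both replicates. Of 23 tested centromere and kinetochore genes 21 were higher in both replicates, with medians of 0.79 and 0.45. KNL1, the kinetochore platform for checkpoint proteins, had differences of 0.79 and 0.91. Of 8 genes around the anaphase-promoting complex 7 were higher in both, with medians of 0.66 and 0.75. ESPL1 (separase), the protease that cuts cohesin at anaphase, had 22.6 and 47.0 rescaled TPM in S2, against 8.06 and 20.2 in S1, without overlap, and CDC20, the activator of the complex, had differences of 1.09 and 0.72. FBXO5 (EMI1), which inhibits the complex during S phase, went opposite ways with 0.25 and -0.10.

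Among 20 condensin, cohesin and topoisomerase genes, 15 were higher in both replicates and 1 was lower. TOP2A, the topoisomerase of dividing cells, had 253 and 553 rescaled TPM in S2, against 127 and 271 in S1, and differences of 0.99 and 1.03. Its values overlapped across replicates. TOP2B, its counterpart in resting and dividing cells, was the lower one, with differences of -0.71 and -0.20. MKI67 (Ki-67), which coats mitotic chromosomes, had 181 and 222 rescaled TPM in S2, against 122 and 144 in S1, and NCAPD2, a condensin I subunit, had 128 and 182 in S2, against 77.4 and 99.5 in S1. Neither overlapped. The cohesin genes SMC3, STAG2, WAPL and NIPBL, which act throughout the cycle, were lower in replicate 2 and higher in replicate 3.

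**Figure D3:**
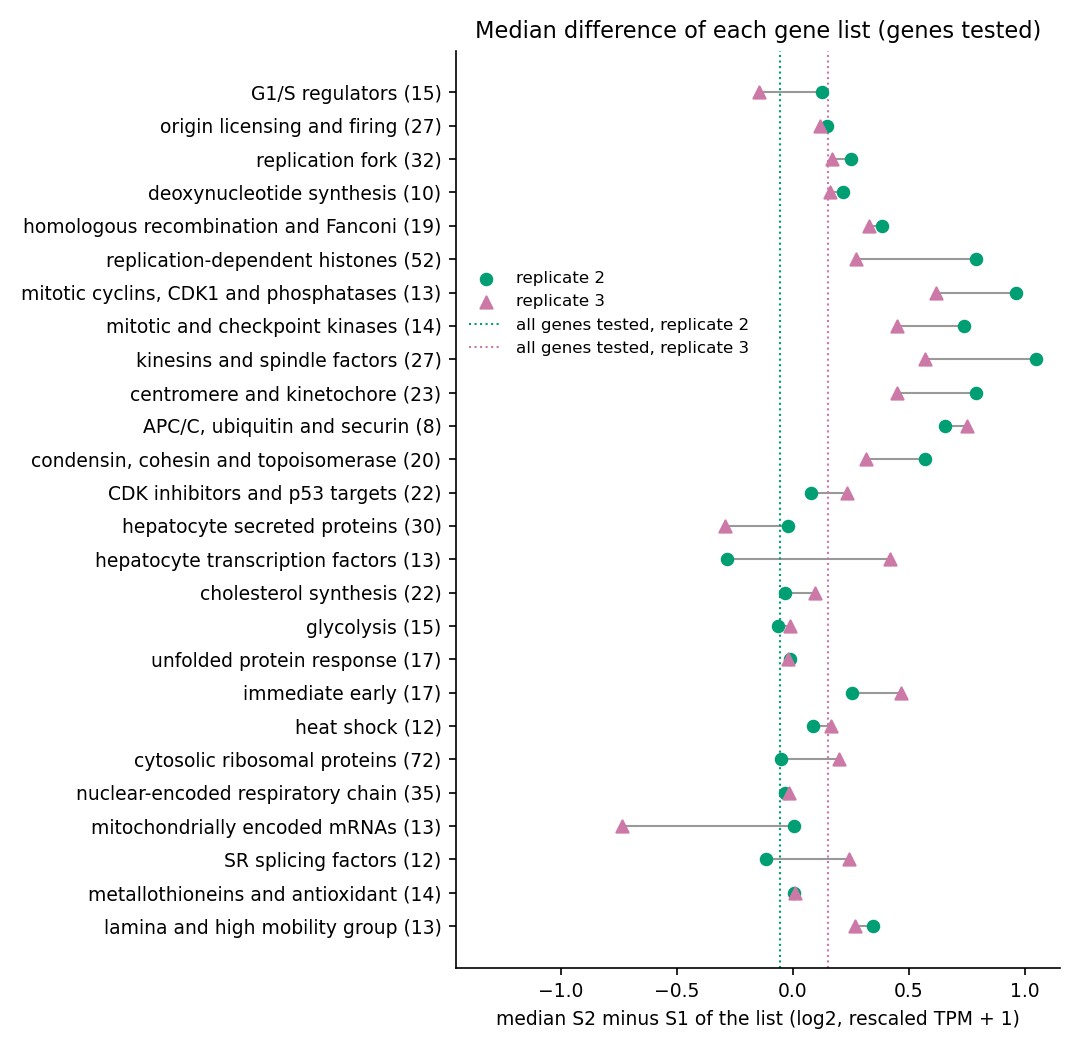
Median S2 minus S1 of each list with at least 5 tested members, on the log2(rescaled TPM + 1) scale, for replicate 2 (circles) and replicate 3 (triangles); dotted lines are the medians over all 10616 genes. The 6 mitotic lists lie to the right of both dotted lines in both replicates, and mitochondrially encoded mRNAs have medians of 0.00 and -0.73.

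Some genes that were 2-fold higher in both replicates were on no list. CDCA3, an adaptor for the destruction of the mitotic inhibitor WEE1, had 55.9 and 135 rescaled TPM in S2, against 10.5 and 51.1 in S1, with differences of 2.31 and 1.38. TROAP, a spindle protein, had 85.7 and 180 rescaled TPM in S2, against 23.7 and 74.2 in S1. PIF1, a DNA helicase, had 43.9 and 85.0 in S2, against 12.7 and 41.2 in S1. TROAP, PIF1, SOCS1 and PSME2 were chosen after their values were seen. SOCS1, which damps cytokine signalling, had 77.2 and 112 rescaled TPM in S2, against 32.1 and 37.1 in S1, and an unadjusted limma p of 0.00044 (adjusted p = 0.9999). PSME2, a subunit of a proteasome activator, had 102 and 129 rescaled TPM in S2, against 48.3 and 50.6 in S1. For all 5 genes both S2 libraries were above both S1 libraries, by a small margin in CDCA3 and PIF1.

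The top of the ranking by the smaller of both differences rested on few reads. PAGE2B had 10 and 6 reads in S2, against 0 and 0 in S1. GAST (gastrin) had 14 and 9 reads in S2, against 2 and 1 in S1, and NUDT14, a sugar-nucleotide hydrolase, had 25 and 24 in S2, against 3 and 3 in S1. HRAS, a growth signalling GTPase, had 41 and 47 reads in S2, against 6 and 14 in S1, or 11.6 and 18.7 rescaled TPM against 1.94 and 4.25. The other genes of the 12 largest were CST11, SLPI, KIFC1, CIDEB, MTCH2, CDCA3, H2BC14 and CCDC163. Of the 38 genes, 11 had under 100 reads over the 4 libraries and 13 had a mean of at least 20 rescaled TPM. Over all 6 fractions, 22 of the 38 had their highest mean level in S2 itself, 10 in S3, 4 in S4 and 2 in G2, where choosing genes for high S2 values favours S2.

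Promoters of the mitotic genes often held the CHR. RefSeq sequences (GRCh38.p14) from 250 bases before to 50 bases after the start site were matched for 8814 of the 10616 genes. CHR was searched as TTTGAA or TTCGAA, the CCAAT box as CCAAT, and E2F motifs as TTTCCCGC, TTTGGCGC, TTTCGCGC or TTTGCCGC, all on both strands; E2F matches may overlap each other. CHR was in 62.9% (56 of 89) of the mitotic promoters and 11.4% of those of all tested genes, and in 16.6% of all 27305 promoters in the table. CCAAT was in 64.0% of the mitotic promoters and 37.8% of all tested, and both elements together were in 44.9% and 4.94%. Of the 56 mitotic promoters with CHR, 76.8% had a match that began in the last 100 bases of the window, around the start site, against 29.0% of all tested promoters with CHR. Within the lists CHR was in 69.0% of the mitotic members that were 1.5-fold higher in both replicates and in 60.0% of the other mitotic members.

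The promoters of 4 mitotic genes that were higher in S2 are shown because each holds CHR and CCAAT close to the start site; capitals mark CHR (TTTGAA here) and CCAAT on either strand, read 5′ to 3′ along the gene. PLK1 lies at chr16:23678639-23678938, plus strand, CDCA3 at chr12:6851237-6851536, minus strand, KIF18B at chr17:44947724-44948023, minus strand and ESPL1 at chr12:53268049-53268348, plus strand.
PLK1: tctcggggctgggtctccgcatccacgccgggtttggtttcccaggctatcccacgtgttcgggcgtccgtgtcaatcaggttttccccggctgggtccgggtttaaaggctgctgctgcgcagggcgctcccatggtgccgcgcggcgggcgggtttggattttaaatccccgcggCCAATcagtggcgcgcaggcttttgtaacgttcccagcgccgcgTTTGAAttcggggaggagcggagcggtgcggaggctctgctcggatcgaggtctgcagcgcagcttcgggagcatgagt
CDCA3: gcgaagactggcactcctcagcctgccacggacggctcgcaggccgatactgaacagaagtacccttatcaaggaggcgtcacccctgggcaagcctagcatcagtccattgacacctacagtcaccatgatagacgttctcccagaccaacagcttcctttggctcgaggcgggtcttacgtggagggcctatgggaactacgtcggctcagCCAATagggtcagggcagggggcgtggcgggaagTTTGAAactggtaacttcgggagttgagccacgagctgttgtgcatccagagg
KIF18B: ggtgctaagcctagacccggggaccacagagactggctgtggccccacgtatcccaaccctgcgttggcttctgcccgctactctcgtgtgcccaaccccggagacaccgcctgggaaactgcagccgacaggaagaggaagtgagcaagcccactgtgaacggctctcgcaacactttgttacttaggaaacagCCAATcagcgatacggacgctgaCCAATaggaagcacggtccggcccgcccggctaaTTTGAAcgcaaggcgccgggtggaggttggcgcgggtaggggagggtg
ESPL1: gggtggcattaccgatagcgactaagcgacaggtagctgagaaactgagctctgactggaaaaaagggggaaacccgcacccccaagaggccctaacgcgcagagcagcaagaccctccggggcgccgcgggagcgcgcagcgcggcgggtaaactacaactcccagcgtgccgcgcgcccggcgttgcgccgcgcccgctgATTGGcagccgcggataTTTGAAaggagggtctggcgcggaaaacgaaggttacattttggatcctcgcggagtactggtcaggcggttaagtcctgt
CHR begins at base 222 of 300 in PLK1, 248 in CDCA3, 253 in KIF18B and 220 in ESPL1, and in each a CCAAT box lies ahead of it. A match of letters is a description and shows no binding.

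Across all genes the same motifs were counted in the higher and lower sets. Among promoters of genes 1.5-fold higher in both replicates, 23.5% (44 of 187) held CHR, 53.5% CCAAT and 5.35% an E2F motif. Without the genes on the lists, CHR was in 12.9% (18 of 140), close to the 11.4% of all tested. Among promoters of genes 1.5-fold lower in both, 9.30% (4 of 43) held CHR and 13.95% (6 of 43) an E2F motif, against 5.81% of all tested.

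**Figure D4:**
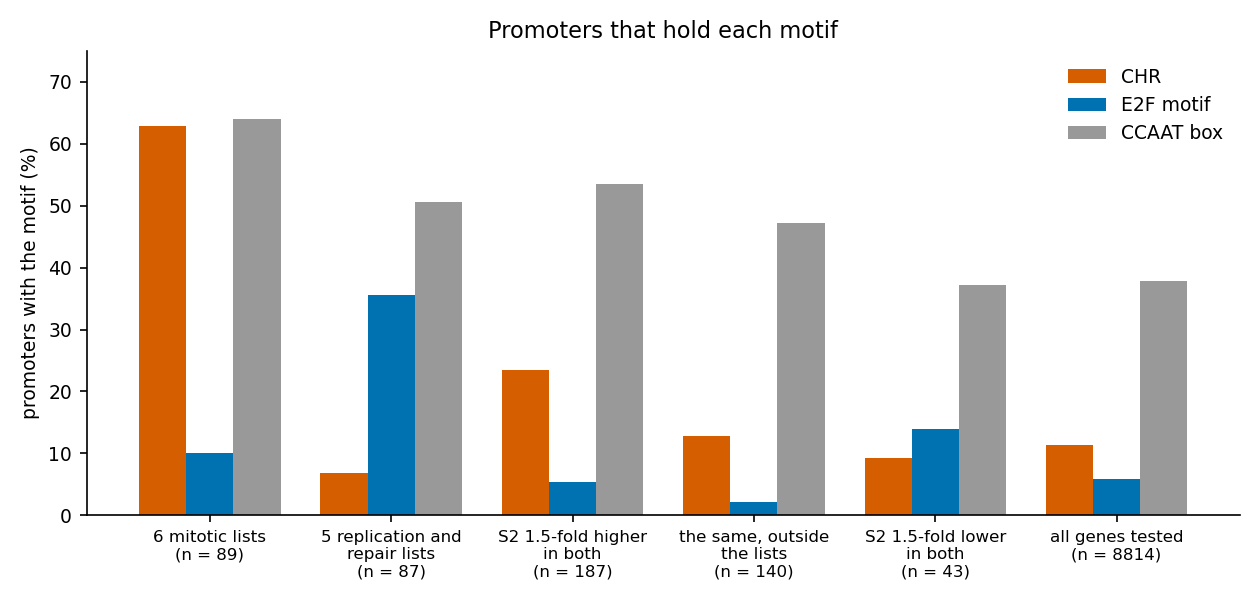
Percentage of promoters that hold CHR (orange), an E2F motif (blue) or a CCAAT box (grey) in 6 sets of genes, with the number of promoters under each set. CHR stands out in the mitotic lists (62.9%) and E2F motifs in the replication and repair lists (35.6%).

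Regulators of the G1 to S transition had no common direction. Of 15 tested G1/S regulators, 4 were higher in both replicates, 5 were lower and 6 went opposite ways. Of all genes 31.2% were higher and 20.3% lower. The regulators' medians were 0.13 and -0.15. CCNE1 (cyclin E1), which starts S phase with CDK2, had 49.9 and 86.7 rescaled TPM in S2, against 32.6 and 102 in S1, so that replicate 2 was higher in S2 and replicate 3 lower. CCNE2 (cyclin E2) had 11.3 and 17.1 rescaled TPM in S2, against 12.3 and 33.4 in S1, and E2F1, the founding member of the E2F family, had 130 and 186 in S2, against 149 and 258 in S1. Both were lower in S2 within each replicate and overlapped across replicates.

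The subunits of the licensing helicase differed among themselves. MCM6 had 22.0 and 34.6 rescaled TPM in S2, against 36.0 and 78.4 in S1, with differences of -0.68 and -1.16. Both S2 libraries were below both S1 libraries, the one such case among 27 licensing and firing genes (3.70%), against 5.22% of all genes. MCM5 had 48.6 and 91.8 rescaled TPM in S2, against 75.5 and 131 in S1, lower within each replicate. MCM3, in the same ring, had 448 and 926 rescaled TPM in S2, against 388 and 806 in S1, higher within each replicate, and CDC6, the loader of the ring, had differences of -0.38 and 0.05. CDC7, the kinase that fires origins, had 0.59 and 0.43. Over the list 9 members were higher in both replicates, 4 lower and 14 opposite, against 31.2% higher and 20.3% lower of all genes.

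DTL, which marks CDT1 for destruction once replication starts, had 14.7 and 35.5 rescaled TPM in S2, against 30.2 and 66.0 in S1. MSH6, a mismatch repair factor, had 38.1 and 58.0 in S2, against 61.6 and 92.5 in S1. Both were chosen after their values were seen, from the 52 genes 1.5-fold lower in both replicates. MSH6 did not overlap between the groups, and DTL did. E2F motifs were in 35.6% (31 of 87) of the promoters of the 5 replication and repair lists, and CHR was in 6.90%. The promoters of MCM6 (chr2:135876394-135876693, minus strand) and DTL (chr1:212035498-212035797, plus strand) are shown as examples with E2F motifs among genes that were lower in S2; capitals mark E2F motifs, CCAAT and, near the 5′ end of MCM6, CHR (TTCGAA).
MCM6: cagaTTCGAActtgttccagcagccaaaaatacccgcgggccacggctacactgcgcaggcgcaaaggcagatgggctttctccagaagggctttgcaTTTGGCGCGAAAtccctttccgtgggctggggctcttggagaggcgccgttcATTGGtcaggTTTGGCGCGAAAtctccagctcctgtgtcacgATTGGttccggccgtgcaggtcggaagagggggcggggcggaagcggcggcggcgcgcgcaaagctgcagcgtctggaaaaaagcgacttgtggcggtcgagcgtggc
DTL: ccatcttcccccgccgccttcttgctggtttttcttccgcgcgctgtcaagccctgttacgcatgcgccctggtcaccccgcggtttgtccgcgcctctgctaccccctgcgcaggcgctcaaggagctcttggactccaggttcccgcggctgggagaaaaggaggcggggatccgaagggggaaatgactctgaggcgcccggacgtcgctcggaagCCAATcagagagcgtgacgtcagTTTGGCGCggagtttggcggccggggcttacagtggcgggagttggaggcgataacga
MCM6 holds 4 E2F matches as 2 overlapping pairs, and DTL holds 1 that begins at base 243 of the window.

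Of 32 replication fork genes 17 were higher in both replicates and 3 lower, against 31.2% and 20.3% of all genes. Their medians were 0.25 and 0.17, against -0.06 and 0.15 over all genes, and those of 10 nucleotide synthesis genes were 0.21 and 0.16. PCNA, the sliding clamp, had 250 and 741 rescaled TPM in S2, against 284 and 809 in S1, lower within each replicate by -0.18 and -0.13. POLE, the leading-strand polymerase, had 170 and 289 in S2, against 132 and 215 in S1. RRM2, the limiting subunit of ribonucleotide reductase, had 149 and 245 rescaled TPM in S2, against 77.2 and 198 in S1, while TYMS, which makes thymidylate, had differences of 0.07 and -0.23. Of 19 homologous recombination and Fanconi genes 13 were higher in both and 2 lower, with medians of 0.39 and 0.33. The recombination median in limma's difference of means was 0.32 with all libraries, -0.27 without S1 replicate 2 and -0.19 without S2 replicate 3. FANCD2, which marks stalled forks, had 47.3 and 107 rescaled TPM in S2, against 22.5 and 63.7 in S1, and RAD54L, a motor of strand exchange, had 147 and 300 in S2, against 87.2 and 191 in S1.

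Counted as 1 group, the 5 replication and repair lists had 103 tested members, of which 47 were higher in both replicates, 14 lower and 42 opposite, against 31.2% higher and 20.3% lower of all genes. The group's medians were 0.18 and 0.12, against -0.06 and 0.15 over all genes, and 4 members were at least 1.5-fold higher in both, against 2.23% of all genes. Replicate 3 was above replicate 2 here too, with median levels (log2) of 5.41 and 6.57 in S2 replicates 2 and 3, against 5.13 and 6.403 in S1. The median in limma's difference of means was 0.13 with all libraries. It was -0.45 without S1 replicate 2, -0.39 without S2 replicate 3, 0.73 without S1 replicate 3 and 0.71 without S2 replicate 2.

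Replication-dependent histone genes were higher in S2 in most cases. They encode the histones made during DNA replication, and their mRNAs end in a stem-loop and carry no poly(A) tail. Of 63 genes 52 were tested, 34 were higher in both replicates, 2 were lower and 16 went opposite ways, against 31.2% higher and 20.3% lower of all genes. The medians were 0.79 in replicate 2 and 0.27 in replicate 3, against -0.06 and 0.15 over all genes. H2BC14 had 92.9 and 126 rescaled TPM in S2, against 37.0 and 44.1 in S1, and differences of 1.31 and 1.49. H2AC18 had 179 and 236 rescaled TPM in S2, against 98.9 and 127 in S1, with a limma difference of 0.87 ± 0.31 (unadjusted p = 0.0198, adjusted p = 0.9999). For both genes, and for 17 of the 52, both S2 libraries were above both S1 libraries, against 9.72% of all genes.

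The histone mRNAs with the highest levels varied in their differences. H1-4, a linker histone, had 1136 and 1536 rescaled TPM in S2, against 743 and 1285 in S1, and H3C2 had 504 and 1064 in S2, against 259 and 677 in S1. The differences were 0.61 and 0.26 for H1-4, and 0.96 and 0.65 for H3C2. Both were higher in S2 within each replicate and overlapped across replicates. H4C3 had 291 and 427 rescaled TPM in S2, against 334 and 260 in S1, with opposite directions. SLBP, which binds the stem-loop of these mRNAs, had differences of 0.18 and -0.10. The median of the list without S1 replicate 2 was 0.14 in limma's difference of means, against 0.48 with all libraries and 1.00 without S1 replicate 3. Histone genes are near-identical copies in a cluster, so the assignment of reads among members is uncertain.

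**Figure D5:**
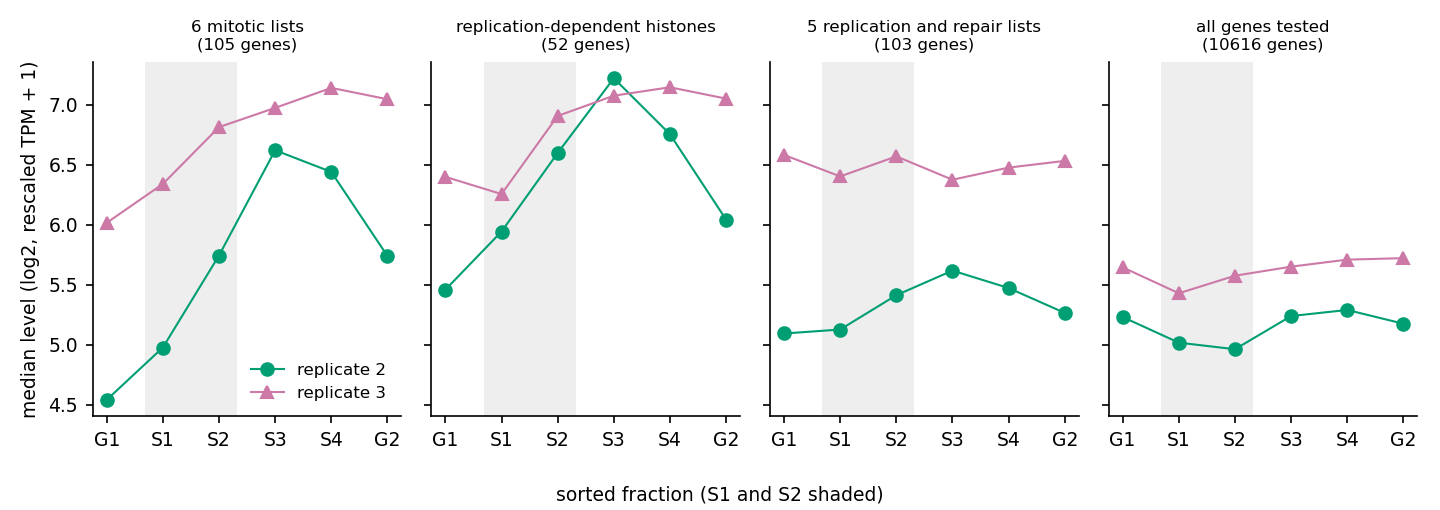
Median level (log2 of rescaled TPM + 1) of 3 groups of genes and of all genes in the 6 sorted fractions, for replicate 2 (circles) and replicate 3 (triangles); S1 and S2 are shaded. The mitotic median of replicate 2 is 4.54 in G1, 4.98 in S1, 5.74 in S2 and 6.62 in S3, while the replication and repair medians stay between 5.09 and 5.62 in replicate 2 and between 6.38 and 6.58 in replicate 3.

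Across the fractions, S1 and S2 lay on the ascending side of the mitotic medians. The median level of the mitotic members (log2) in replicate 2 was 4.54 in G1, 4.98 in S1, 5.74 in S2, 6.62 in S3, 6.44 in S4 and 5.74 in G2. In replicate 3 it was 6.02 in G1, 6.34 in S1, 6.81 in S2, 6.97 in S3, 7.14 in S4 and 7.05 in G2. The step between S1 and S2 was 0.75 in replicate 2 and 0.48 in replicate 3 as the median of differences. The histone median of replicate 2 was 5.46 in G1, 5.94 in S1, 6.60 in S2, 7.22 in S3, 6.75 in S4 and 6.04 in G2, and that of replicate 3 was 6.399, 6.26, 6.91, 7.07, 7.15 and 7.05 in the same order. Both medians were higher in S2 than in S1 and higher in S3 than in S2 in both replicates, and in replicate 2 they were lower in S4 than in S3.

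Genes of growth arrest were mixed. Of 22 CDK inhibitors and p53 targets 12 were higher in both replicates, 3 lower and 7 opposite, against 31.2% higher and 20.3% lower of all genes. The medians were 0.08 and 0.23, and limma's median of 0.20 was -0.30 without S1 replicate 2 and -0.41 without S2 replicate 3. GDF15, a secreted stress hormone that p53 induces, had 577 and 739 rescaled TPM in S2, against 347 and 409 in S1, without overlap, and a limma difference of 0.79 ± 0.26 (unadjusted p = 0.0119, adjusted p = 0.9999). CDKN1A (p21), the CDK inhibitor, had 92.2 and 386 rescaled TPM in S2, against 44.0 and 205 in S1. It was higher in S2 within each replicate and differed more between replicates than between fractions. MDM2, which destroys p53, had 256 and 988 in S2, against 228 and 694 in S1.

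Immediate early genes, which growth factors and stress switch on, were higher in both replicates for 11 of 17 members and lower for 0, against 31.2% and 20.3% of all genes. Their medians were 0.26 and 0.47, against -0.06 and 0.15 over all genes. Limma's median of 0.31 was 0.24 without S1 replicate 3 and 0.27 without S2 replicate 2, against 0.21 and 0.34 over all genes. It was 0.59 without S1 replicate 2 and 0.57 without S2 replicate 3, against -0.13 and -0.22 over all genes. MYC had 118 and 182 rescaled TPM in S2, against 115 and 96.0 in S1, with no overlap, though replicate 2 differed by 0.04 and replicate 3 by 0.92. JUND had 380 and 237 rescaled TPM in S2, against 254 and 172 in S1, and FOSL1 had 20.9 and 61.9 in S2, against 10.8 and 25.4 in S1. JUND and FOSL1 were higher in S2 within each replicate and overlapped across replicates. Of 12 heat shock genes 5 were higher in both and 1 was lower, and of 17 unfolded protein response genes 5 were higher and 6 lower.

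Of 30 tested genes for secreted plasma proteins 16 were lower in both replicates and 2 higher, against 20.3% and 31.2% of all genes, with medians of -0.02 and -0.29. After centring 6 were lower and 0 higher, against 28.6% of all genes on each side. Limma's median of -0.14 was 0.10 without S1 replicate 2 and 0.29 without S2 replicate 3. Each of these fits compares 1 replicate number in a fraction with both in the other. The list's median level (log2) was 10.22 and 9.55 in S2 replicates 2 and 3, against 10.35 and 9.81 in S1. The direction in the fits thus depended on which replicate numbers were compared. AHSG (fetuin A) had 7330 and 2538 rescaled TPM in S2, against 7391 and 3569 in S1. AFP (alpha-fetoprotein) had 12721 and 8444 in S2, against 13100 and 8276 in S1, with differences of -0.04 and 0.03. Of 13 liver transcription factors 5 were higher in both and 2 lower, and the medians had opposite signs, -0.28 and 0.42. After centring 5 of these factors were higher and 6 lower. CEBPA had 88.6 and 208 rescaled TPM in S2, against 65.6 and 103 in S1, and HNF4A had 218 and 233 in S2, against 319 and 227 in S1, the replicates going opposite ways.

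Mitochondrially encoded mRNAs had medians of 0.00 in replicate 2 and -0.73 in replicate 3, with 6 of 13 lower in both and 0 higher. MT-CO1, a cytochrome oxidase subunit, had 55064 and 25425 rescaled TPM in S2, against 58327 and 43167 in S1. MT-ND6, encoded on the other strand, had 4354 and 3228 rescaled TPM in S2, against 6510 and 5849 in S1. It was the one member of 13 (7.69%) with both S2 libraries below both S1 libraries, against 5.22% of all genes. Of 72 ribosomal protein genes 26 were higher in both replicates and 8 lower, near the 31.2% and below the 20.3% of all genes, and after centring 22 were higher and 17 lower, against 28.6% each. Of 35 nuclear-encoded respiratory chain genes 9 were higher and 12 lower. COX8A had 15.4 and 17.6 rescaled TPM in S2, against 31.8 and 34.3 in S1, without overlap. Against the same 31.2% higher and 20.3% lower of all genes, cholesterol synthesis had 7 of 22 higher and 4 lower. Glycolysis had 3 of 15 higher and 5 lower, and SR splicing factors 3 of 12 higher and 1 lower. Metallothionein and antioxidant genes had 4 of 14 higher and 3 lower. After centring cholesterol synthesis had 4 higher and 9 lower, and glycolysis 1 higher and 5 lower. SR splicing factors then had 3 higher and 1 lower, and metallothionein and antioxidant genes 4 higher and 6 lower.

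Nuclear lamina and high mobility group genes were higher in both replicates for 9 of 13 members and lower for 1, against 31.2% and 20.3% of all genes, with medians of 0.34 and 0.27. After centring 7 were higher and 3 lower, against 28.6% of all genes on each side. Limma's median of 0.33 was -0.20 without S1 replicate 2 and -0.16 without S2 replicate 3, against -0.13 and -0.22 over all genes. HMGB2, a chromatin protein of dividing cells, had 206 and 320 rescaled TPM in S2, against 128 and 247 in S1. HMGN2, which binds nucleosomes, had 75.3 and 239 in S2, against 50.9 and 161 in S1. LMNB1 (lamin B1) had 111 and 172 in S2, against 96.8 and 159 in S1. All 3 were higher in S2 within each replicate and overlapped across replicates.

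The 8 genes that were 2-fold lower in both replicates shared no list, and 2 of them had a mean of at least 20 rescaled TPM. ZNF784, a zinc finger gene, had 6.82 and 5.73 rescaled TPM in S2, against 22.5 and 18.9 in S1, from 20 and 12 reads against 58 and 52. POLD4, the small subunit of DNA polymerase delta, had 1.81 and 2.85 rescaled TPM in S2, against 6.95 and 8.45 in S1, from 8 and 9 reads against 27 and 35. VPS37D, a subunit of an endosomal sorting complex, had 20.5 and 11.9 in S2, against 43.7 and 30.03 in S1. The groups did not overlap for any of the 3. Just under 2-fold, FBXL20 had 15.5 and 11.5 rescaled TPM in S2, against 38.4 and 23.9 in S1, and TOM1L1 had 19.5 and 26.2 in S2, against 38.4 and 51.3 in S1. RHEBL1, FAM166B, GNPDA1, TNFSF14, RASSF8, COX8A and SMIM20 completed the 12 largest, and C6orf226, left out of the ranking for its name, was the other gene past 2-fold, with 1 and 2 reads in S2, against 4 and 8 in S1.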

How the data were processed

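RNA from sorted fractions and bulk cells was analysed; the Repli-seq samples were not. The authors deposited log2 values per gene; back-transformed and less 1, they sum to 1000000 in each library, which makes them log2(TPM + 1). HISAT2, BWA, cutadapt, Trimmomatic, SAMtools and hg38 appear without roles, per the submitters' processing notes. The quantifier and gene annotation were not given in the sources used here. These log2 values were back-transformed to TPM, 19320 protein-coding genes were kept (30 identifiers with a shared symbol were dropped), each library was rescaled to 1000000, and genes with a mean of at least 5 over the 4 S1 and S2 libraries were tested. Whole reads were recovered from the TPM steps for all 50310 genes that were listed above 0 in 3 or more libraries, with 99.5% of lengths whole within 0.01 base, and served for depth and for the voom alternatives. TPM carries no interval of its own, and read numbers cover counting error only.

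Differences were taken on log2(rescaled TPM + 1) within each replicate number. The test was limma 3.58.1 with a mean-variance trend in R 4.3.3 over the 12 sorted libraries, without a replicate block. Benjamini-Hochberg adjustment ran over all genes with a threshold of 0.05. The fit was checked on simulated counts that held no replicate effect, so the check does not cover the spread between replicate numbers. Other steps used Python 3.11.15, numpy 2.4.6, pandas 2.3.3 and matplotlib 3.10.9. Scaling, pseudocount, filter, block, voom and leaving out each library were varied. Members and lists were chosen with earlier results of these data known. The text names a preset group of 20 cell cycle, liver and mitochondrial genes, the 12 largest differences each way by the smaller replicate, leaving out clone, locus and open reading frame names, and in each list up to 4 by level and 3 by difference; other names are given as exceptions or chosen after their values were seen. Promoters came from RefSeq (GRCh38.p14), matched by symbol.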

Additional observations from a re-analysis of the deposited data

How the results depend on the processing

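The count of genes called by limma was 0 in the fit used and under 15 alternatives of scaling, pseudocount, filter, trend, weights, voom and leaving out each library. With a replicate block it was 2 over the 12 sorted libraries, 158 over the 4 libraries alone, 41 with voom and 0 with median-ratio scaling. The replicate 3 minus replicate 2 differences of S2 and S1 correlated over genes with r = 0.62, and over 15 pairs of fractions with r between 0.58 and 0.71. There are just 2 numbers and the labels name nothing that they share, so the block was not the design. The count past 2-fold in both replicates (46) was 289 at 1.5-fold, 6 at 3-fold, 15 with a pseudocount of 5, 329 with no filter and 15 with a mean of at least 20. Of 26 lists, 11 had a limma median at least 0.25 from that of all genes, 10 above it and 1 below. When a library was left out 9 to 18 did: 4 above and 5 below without S1 replicate 2, 15 and 3 without S1 replicate 3, 13 and 4 without S2 replicate 2, and 9 and 0 without S2 replicate 3.

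Directions of single genes turned under some alternatives; the cause was not tested. CCNE1 was -0.020 with voom and a replicate block. SLBP was -0.031 when rescaled without mitochondrial genes, -0.027 with median-ratio scaling, with or without a replicate block, -0.051 with quantile normalization, -0.039 with voom and -0.078 with voom and a replicate block. ALB was 0.14 and AFP 0.19 with quantile normalization. When a library was left out, limma's difference ranged from -0.63 to 0.99 for CCNE1, -1.20 to 0.16 for CCNE2, -1.08 to 0.76 for CDC6, -0.94 to 0.63 for PCNA and -0.047 to 1.30 for RRM2. It ranged from -0.71 to 0.80 for SLBP, -0.017 to 0.53 for H4C3, -0.040 to 1.69 for CCNA2, -0.31 to 1.82 for CDK1 and -0.12 to 2.08 for CDKN1A. For ALB it ranged from -0.65 to 0.18, for AFP from -0.34 to 0.32 and for MT-CO1 from -0.98 to 0.13. With a library left out, the lone library of its fraction was assumed to vary like the other fractions. Few reads limit low genes: r over genes between the replicates' differences was 0.06 in the lowest and 0.29 in the highest of 5 equal groups by level.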

Other observations

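Genes on chromosomes 16, 17, 19 and 22 had the 4 highest chromosome medians of the S2 minus S1 difference in both replicates. The medians in replicates 2 and 3 were 0.04 and 0.25 for the 533 genes on chromosome 16, and -0.01 and 0.27 for the 633 genes on chromosome 17. They were 0.03 and 0.26 for the 798 genes on chromosome 19, and 0.01 and 0.24 for the 256 genes on chromosome 22. Chromosome 13, with 176 genes, had the lowest median in both, -0.16 and 0.05. Transcript length moved with the difference as well: of 5 equal groups by length, the shortest had medians of 0.08 and 0.17, and the longest had -0.14 and 0.13. The shortest group held 26 of the 38 genes that were 2-fold higher in both replicates. The part of length in the chromosome medians was not tested.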
